A study of Mus musculus with 8 samples.

Results

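The S100 genes encode small calcium-binding proteins, and 8 members of the family were followed through the cells of the newborn mouse lung: S100a1, S100a4, S100a6, S100a8, S100a9, S100a10, S100a11 and S100a13. They were chosen by name as 8 of the 32285 genes in the count table, and their levels were compared between groups of cells set by transcripts of other genes. S100 proteins bind calcium through paired EF-hand loops, mostly work as dimers and act by binding other proteins. S100a8 and S100a9 form calprotectin, a major cytosolic protein of neutrophils that is released in inflammation, withholds zinc and manganese from microbes and signals through Tlr4 and Ager. The other members act mainly inside cells: S100a10 pairs with annexin A2 (Anxa2), S100a11 with annexin A1 (Anxa1), S100a4 with the heavy chain of non-muscle myosin (Myh9) and S100a6 with Cacybp, while S100a1 is best known as a regulator of calcium cycling in heart muscle and S100a13 as a partner in the release of Fgf1 and Il1a.

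The cells came from whole lungs of C57BL6/J mouse pups, labelled wild type and 5 days old, that had been exposed to lipopolysaccharide, a bacterial wall component, before birth on gestation day 14. The pups were kept from birth in hyperoxia at 65% oxygen (4 libraries) or in air at 21% oxygen (4 libraries), so the air group had also had the antenatal exposure and was not untreated. Lungs were frozen, thawed and sorted by flow cytometry for immune, epithelial and endothelial cells before droplet sequencing, and the labels do not say how many pups each library holds. The count table pools all 8 libraries with no key that ties a cell to a library, so no value below is split by oxygen and both exposures stand in each level.

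In all, 11806 cells gave 77020720 molecules, each counted by a unique molecular identifier (UMI), and a median of 4425 UMIs per cell. Cell barcodes ran in alphabetical order through 8 stretches, called runs here, of 282 to 3355 cells with median depths of 3246 to 11587 UMIs, and 12 barcodes occurred in more than 1 run. A run is not a known library or replicate, so values per run are given as a range and a median over the runs with at least 20 cells of a group. Levels are summed counts of a group of cells scaled to a total of 1000000 UMIs (CPM). No test was possible with a single pooled sample, and every interval is a 95% exact interval for counting error only. Each molecule was counted at its 3' end.

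A cell entered a group when it passed the UMI gate of that group and of no other. This gave 772 neutrophils (Csf3r, Il1r2 and Cxcr2), 351 classical monocytes (F13a1 with Ly6c2), 2005 nonclassical monocytes (Ace and Adgre4), 895 alveolar macrophages (Ear1 and Marco), 230 interstitial macrophages (C1qa and C1qb), 709 alveolar type 2 (AT2) cells (Sftpc), 102 alveolar type 1 (AT1) cells (Rtkn2), 412 endothelial cells (Cdh5 and Cldn5) and 675 T cells (Cd3e and Trac). A further 875 cells passed more than 1 gate and were kept apart, and 4780 other cells (40.5%) passed none. In 7 of the 9 groups every marker of an independent list was highest in the group of its name, and the exceptions were Chil3 of the classical monocyte list and Mrc1 of the interstitial macrophage list, both highest in alveolar macrophages.

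The neutrophil gate held cells with little calprotectin transcript. S100a8 and S100a9 together made up at least 1% of the UMIs in 429 of its 772 cells (55.6%, interval 52.0 to 59.1%). Over 7 runs the summed level of 6 neutrophil markers in the group was between 546 and 5352 CPM, with a median of 3937 CPM. In run 5 it was 546 CPM, and 1 of the 28 gated cells there reached the 1% share. Interstitial macrophage markers summed to 1752 CPM and nonclassical monocyte markers to 581 CPM in the same group, with none of either list at 0. The same sums were 1460.3 and 412 CPM in classical monocytes, and the interstitial macrophage sum was 1822 CPM in nonclassical monocytes. The neutrophil values below therefore describe a gate that includes cells with little calprotectin transcript. What those cells are, and their part in each value, was not tested.

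All 8 members lie on mouse chromosome 3 (GENCODE vM21, build GRCm38, the assembly also called mm10). S100a1, S100a13, S100a4, S100a6, S100a8 and S100a9 sit within chr3:90511034-90695721, and S100a11 and S100a10 lie further along, up to base 93564643. S100a8 (chr3:90668978-90670035, plus strand) and S100a9 (chr3:90692632-90695721, minus strand) are neighbours separated by 22596 bases. S100a1 (chr3:90511034-90514392, minus strand) and S100a13 (chr3:90514435-90524581, plus strand) start back to back, 42 bases apart. The annotation of S100a4 (chr3:90603771-90606045, plus strand) overlaps Gm42674 on the same strand, so its counts carry the uncertainty of how shared reads were assigned.

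The promoters of S100a8, S100a9 and S100a1 are shown because S100a8 and S100a9 had closely similar profiles over cells but parted in alveolar macrophages, where S100a1 was at its highest among the 9 groups. Each line gives the 250 bases before the start that RefSeq gives the gene, 5′ to 3′ on the strand of the gene, on GRCm38.p6. The RefSeq start of S100a8 lies inside the GENCODE gene, so the last 93 bases of its stretch are within that gene, as are the last 62 of S100a1 and none of S100a9. Capitals mark matches on either strand to TTNNGNAA (the core of C/EBP sites), GAGGAA (the core of PU.1 sites) or TATAAA (the TATA box). The coordinates are chr3:90668821-90669070 for S100a8, chr3:90695722-90695971 for S100a9 and chr3:90514331-90514580 for S100a1.
S100a8: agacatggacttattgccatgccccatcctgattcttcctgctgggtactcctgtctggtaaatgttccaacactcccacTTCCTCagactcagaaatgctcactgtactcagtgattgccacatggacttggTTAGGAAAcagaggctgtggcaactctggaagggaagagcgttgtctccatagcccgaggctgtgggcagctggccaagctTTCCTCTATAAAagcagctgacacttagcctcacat
S100a9: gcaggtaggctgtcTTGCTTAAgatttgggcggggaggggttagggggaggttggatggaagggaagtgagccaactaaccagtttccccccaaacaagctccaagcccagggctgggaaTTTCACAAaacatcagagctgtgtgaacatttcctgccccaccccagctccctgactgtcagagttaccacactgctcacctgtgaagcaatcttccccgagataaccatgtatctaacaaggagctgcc
S100a1: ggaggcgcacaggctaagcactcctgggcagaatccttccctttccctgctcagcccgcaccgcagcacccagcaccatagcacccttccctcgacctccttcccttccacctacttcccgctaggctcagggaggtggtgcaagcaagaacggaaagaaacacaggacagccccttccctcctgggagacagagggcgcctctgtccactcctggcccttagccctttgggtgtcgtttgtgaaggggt
The search window also took in the 50 bases after the start. S100a8 had 1 C/EBP match at -117, PU.1 matches at -170 and -36, and a TATA box at -30 that directly follows the second PU.1 match. S100a9 had C/EBP matches at -236 and -130, no PU.1 match, and a TATA match at position 1, outside the printed stretch. S100a1 and S100a13, whose windows share 204 bases, had no match to any of these motifs, and S100a6 had none either. S100a4 had 1 PU.1 match and 1 TATA match, and S100a11 had 1 PU.1 match. S100a10 had no promoter entry and was not searched. Of 32851 promoter windows of the same length, 40.7% held the C/EBP motif, 28.3% the PU.1 motif and 13.6% the TATA motif, so these matches are common and describe letters, not binding.

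**Figure D1:**
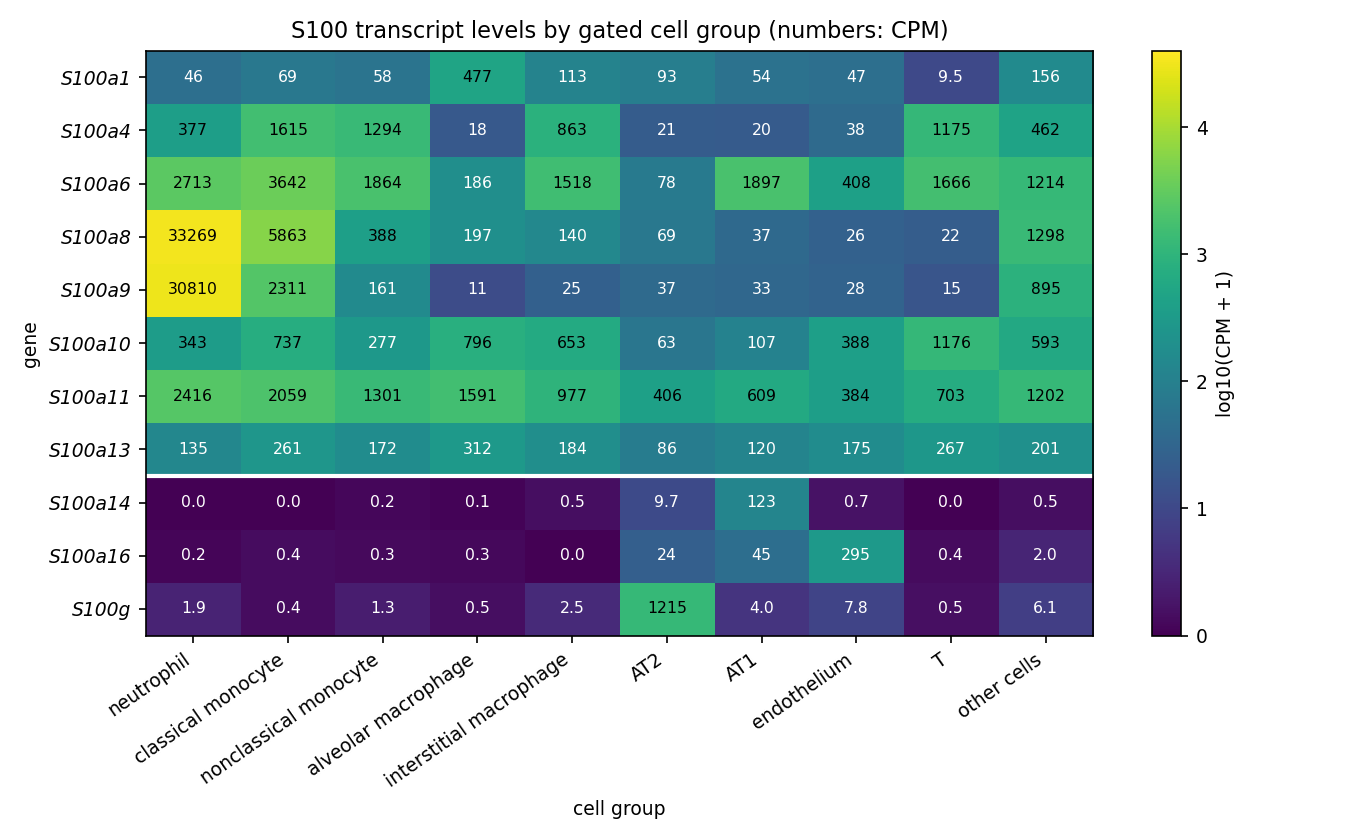
Level of each S100 gene (rows) in each gated cell group (columns) as CPM, printed in the cell and coloured on a log10(CPM + 1) scale; the 8 members are above the white line and 3 other S100 genes below it. S100a8 and S100a9 peaked in neutrophils at 33269 and 30809.7 CPM, and S100a1 peaked in alveolar macrophages at 477 CPM.

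Calprotectin transcripts were the most unevenly spread of the family. S100a8, the smaller subunit of the pair, reached 33269 CPM in neutrophils and 5863 CPM in classical monocytes. It was at 388 CPM in nonclassical monocytes, 197 CPM in alveolar macrophages and 139.6 CPM in interstitial macrophages. In the remaining groups it was at 68.8 CPM in AT2 cells, 36.9 CPM in AT1 cells, 26.3 CPM in endothelium and 21.5 CPM in T cells. Counting intervals separated each of these groups from the next as far as AT2 from AT1 cells, but did not separate AT1 cells, endothelium and T cells. The lower levels rested in part on run 1, where S100a8 was at 301 CPM in interstitial macrophages and 260.4 CPM in AT2 cells, against a median of 59.8 CPM over 6 runs and 33.6 CPM over 7 runs of those groups. Without run 1, S100a8 was at 50.6 CPM in interstitial macrophages (interval 39.0 to 64.6) and 35.4 CPM in AT2 cells (interval 29.8 to 41.7), which no longer separated them. It was then at 17.5 CPM in endothelium and 12.5 CPM in T cells, and at 18302 CPM in neutrophils and 3639 CPM in classical monocytes. Over 7 runs the neutrophil level of S100a8 lay between 2057 and 43541 CPM, with a median of 15627 CPM, and over 5 runs the classical monocyte level lay between 1584 and 12575 CPM, with a median of 2594 CPM. The 2 ranges overlapped, and the neutrophil level was the higher in 4 of the 5 runs that held both groups.

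S100a9, the other subunit, was at 30809.7 CPM in neutrophils, 2311 CPM in classical monocytes and 161 CPM in nonclassical monocytes. It was at 37.3 CPM in AT2 cells, 33.0 CPM in AT1 cells, 28.4 CPM in endothelium, 25.0 CPM in interstitial macrophages, 15.3 CPM in T cells and 10.8 CPM in alveolar macrophages. Each of these last 6 groups had a counting interval that overlapped that of the next, but AT2 cells (interval 32.0 to 43.2), AT1 cells (21.3 to 48.6) and endothelium (20.3 to 38.7) lay above T cells (12.2 to 18.9) and alveolar macrophages (8.65 to 13.4). Without run 1, S100a9 was at 13.6 CPM in AT2 cells, 19.6 CPM in AT1 cells, 16.6 CPM in endothelium, 7.33 CPM in T cells and 6.58 CPM in alveolar macrophages. Over runs S100a9 lay between 2232 and 54858 CPM in neutrophils and between 49.5 and 7288 CPM in classical monocytes. Without run 1 it was at 19248 CPM in neutrophils and 662 CPM in classical monocytes, without run 7 at 3657 CPM in classical monocytes, and without run 3 at 75.9 CPM in nonclassical monocytes. S100a9 in neutrophils was above classical monocytes in 5 of 5 runs.

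With a gene called higher when it was at least 4-fold above all cells outside the group and at least 20 CPM within it, 2 of the 8 members were called higher in neutrophils, against 1.82% of all 7051 genes tested there. S100a8 was 29.4-fold higher in neutrophils than in all other cells (interval 29.1 to 29.6) and S100a9 was 50.5-fold higher, each in 7 of 7 runs. The fold of S100a8 was 19.1 as the median over runs. That of S100a9 was 33.1 when cells of more than 1 gate were also assigned and 94.0 against the mean of the other 8 groups. No member was called lower in neutrophils, against 5.90% of all genes, and the median log2 fold of the 8 members was 0.22, against -0.21 over all genes tested. S100a11 (2416 CPM, 2.03-fold) and S100a6 (2713 CPM, 2.10-fold) were also above the outside level in neutrophils in 7 of 7 runs but short of 4-fold. The 8 members together made up 7.01% of all neutrophil UMIs, 1.66% of those of classical monocytes and 0.0853% of those of AT2 cells.

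The S100a8 to S100a9 ratio differed between the groups. In neutrophils it was 1.08 (interval 1.07 to 1.09), and the 7 runs lay between 0.791 and 1.19. In classical monocytes it was 2.54 (interval 2.46 to 2.62), between 1.73 and 32.0 over 5 runs, and 5.50 without run 1. Every run of classical monocytes lay above every run of neutrophils. The pooled classical monocyte values were uneven over cells. The upper quartile of S100a9 was 0% of a cell's UMIs and the maximum 6.65%, and 34 cells of run 1 held 4246 of the 5410 S100a9 UMIs. In nonclassical monocytes the ratio was 2.41 (interval 2.27 to 2.56), between 0.857 and 33.3 over 8 runs, and 4.38 without run 3. These values were uneven over cells too. The 90th percentile of S100a9 was 0.00186% of a cell's UMIs and the maximum 11.1%, and run 3 held 905 of the 1561 S100a9 UMIs. S100a8 and S100a9 together reached 1% of UMIs in 12 of the 2005 cells. What those cells are, and their part in the ratio, was not tested.

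Alveolar macrophages carried S100a8 with almost no S100a9. Their ratio was 18.2 (interval 14.6 to 22.9), from 1543 UMIs of S100a8 and 85 of S100a9. It was at least 7.84 in each of 6 runs, with a median of 26.0, and in run 5 there were 524 UMIs of S100a8 and 1 of S100a9. The ratio was 12.1 without run 5 and 26.5 without run 1. Interstitial macrophages had a ratio of 5.59 (interval 4.11 to 7.74), from 274 and 49 UMIs, and 2.91 without run 1. The intervals of the ratio in AT1 cells (1.12, interval 0.630 to 2.00), endothelium (0.925, interval 0.575 to 1.48) and T cells (1.40, interval 1.05 to 1.88) all held the neutrophil value. That of AT2 cells did not, with a ratio of 1.85 (interval 1.53 to 2.23) from 327 and 177 UMIs, and 2.60 without run 1. S100a8 and S100a9 were uneven over AT2 cells, with an upper quartile of 0% of a cell's UMIs for the pair. In 1 of the 709 AT2 cells the pair made up 1.57% of UMIs, and the part of that cell in the ratio was not tested.

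The summed level of the 6 neutrophil markers was 131 CPM in alveolar macrophages, between 109 and 154 CPM over 6 runs, against 54.6 CPM in T cells and 29.8 CPM in endothelium. The part of neutrophil RNA in the levels of S100a8 and S100a9 in these groups was not tested.

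**Figure D2:**
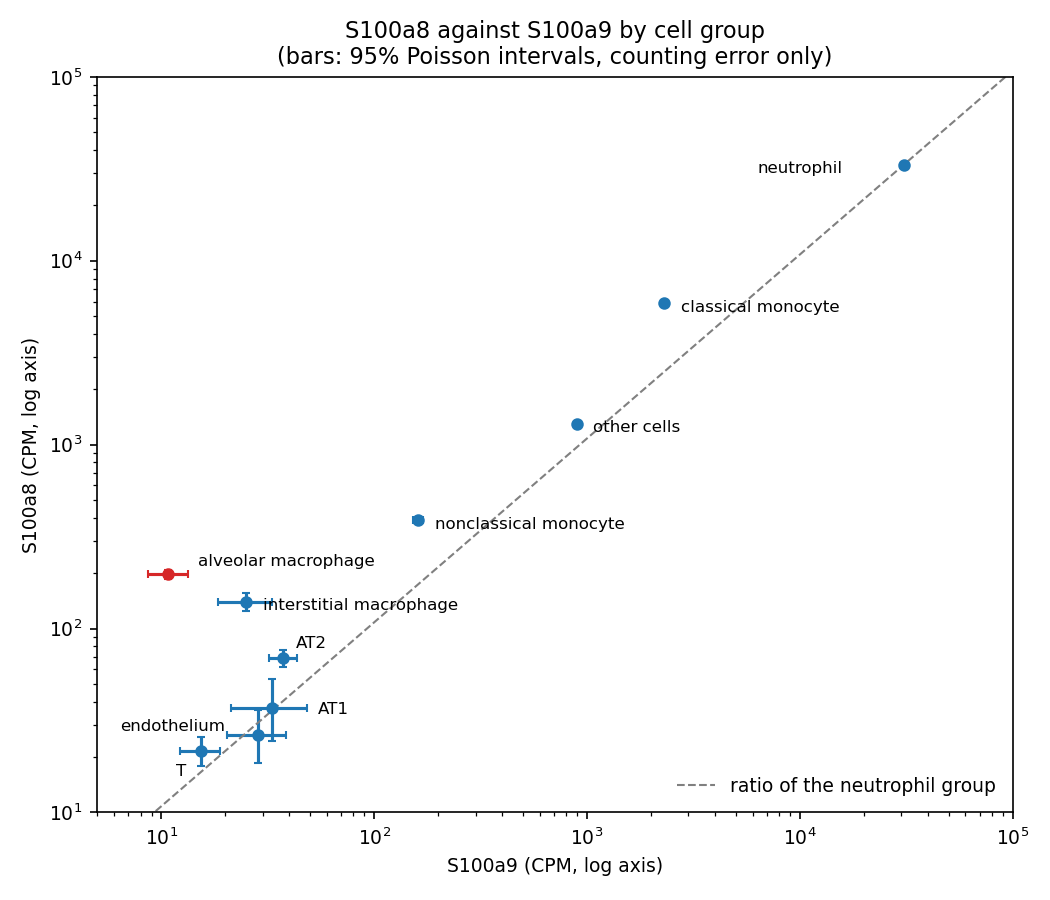
S100a8 (y axis) against S100a9 (x axis) in CPM on log axes, 1 point per cell group, with 95% Poisson intervals for counting error; the dashed line is the ratio of the neutrophil group. AT1 cells, endothelium and T cells lie near the line, while alveolar macrophages (red) lie far above it at 197 CPM of S100a8 and 10.8 CPM of S100a9. AT2 cells lie above the line at 68.8 CPM of S100a8 and 37.3 CPM of S100a9.

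Detection per cell was compared after each cell was thinned to 2000 UMIs, which removes the difference in depth. In thinned alveolar macrophages, S100a8 without S100a9 was found in 218 of 885 cells (24.6%), both in 0.904% and S100a9 without S100a8 in 1.58%. In thinned T cells, which should lack both genes, S100a8 alone was found in 2.29% of 654 cells and S100a9 alone in 1.53%. Before thinning, 60.7% of alveolar macrophages (median depth 7398 UMIs) and 9.93% of T cells (median depth 5363 UMIs) had an S100a8 UMI. S100a8 in alveolar macrophages was thus above the share in T cells beyond counting error. S100a9 was found in 2.49% of thinned alveolar macrophages (interval 1.56 to 3.74%) and 2.14% of thinned T cells (interval 1.18 to 3.57%), with overlapping intervals. The level in a single macrophage was low, with S100a8 at a median of 0.0111% of its UMIs and a maximum of 0.358%.

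Neutrophils and classical monocytes differed in the same measure. Of 711 thinned neutrophils, 65.7% had both transcripts and 12.0% had S100a8 alone. Of 345 thinned classical monocytes, 17.1% had both and 46.1% had S100a8 alone, and only 1 cell had S100a9 alone. Among thinned AT1 cells, S100a9 was found in 12.4% (interval 6.56 to 20.6%), above the T cell share. AT1 cells came mainly from runs 1 and 6, where their S100a9 was at 60.3 and 32.6 CPM, against 42.0 and 17.8 CPM in T cells of the same runs.

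**Figure D3:**
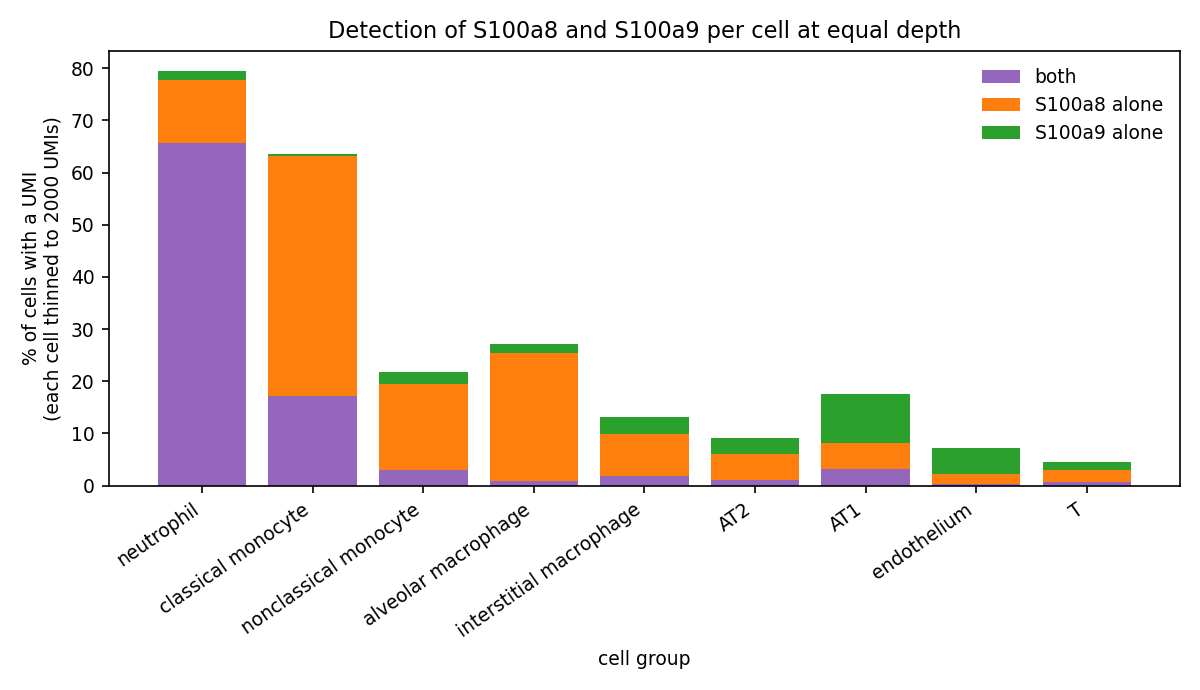
Percent of cells with a UMI of S100a8 and S100a9 together (purple), of S100a8 alone (orange) or of S100a9 alone (green), after every cell was thinned to 2000 UMIs, by cell group. In neutrophils 65.7% of cells had both, while in alveolar macrophages 24.6% had S100a8 alone and 0.904% had both.

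S100a1, the muscle calcium regulator, was highest in alveolar macrophages among the 9 gated groups. It was at 477 CPM in that group (interval 462 to 493), then at 113 CPM in interstitial macrophages, 92.8 CPM in AT2 cells, 69.2 CPM in classical monocytes, 57.8 CPM in nonclassical monocytes, 54.0 CPM in AT1 cells, 46.9 CPM in endothelium, 46.3 CPM in neutrophils and 9.47 CPM in T cells. The lowest of 6 alveolar macrophage runs, at 275 CPM, stood above the highest run of interstitial macrophages, at 180.3 CPM. The middle of this order, from classical monocytes to neutrophils, was not resolved beyond counting error between neighbours, and T cells were lowest with runs between 0 and 18.4 CPM.

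S100a1 was 4.84-fold higher in alveolar macrophages than in all other cells (interval 4.65 to 5.04), and 4.37 to 5.10-fold higher with each run left out. It was the 1 member called higher there, against 1.61% of 7133 genes tested. Within runs it was above the outside level in 6 of 6. It was short of 4-fold in runs 1 (275 against 77.6 CPM outside), 2 (278 against 72.5 CPM) and 5 (626 against 173 CPM). It was beyond 4-fold in runs 3 (416 against 94.4 CPM), 4 (708 against 170.5 CPM) and 7 (500.4 against 103 CPM). Thinned to 2000 UMIs, 59.3% of alveolar macrophages had an S100a1 UMI, against 17.2% of interstitial macrophages and 1.53% of T cells. Ryr2 and Atp2a2, the calcium release channel and calcium pump that S100a1 regulates in heart muscle, did not share this pattern. Ryr2 was highest in endothelium at 110.1 CPM and Atp2a2 in AT2 cells at 279 CPM, and Atp2a2 was at 113 CPM in alveolar macrophages.

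S100a4, a protein linked to cell motility, was high in monocytes, T cells and interstitial macrophages and lowest in alveolar macrophages and epithelium. It was at 1615 CPM in classical monocytes, 1294 CPM in nonclassical monocytes, 1175 CPM in T cells, 863 CPM in interstitial macrophages and 377 CPM in neutrophils. The 5 groups stood 10.0-fold or more above the rest, with 37.6 CPM in endothelium, 20.8 CPM in AT2 cells, 19.8 CPM in AT1 cells and 18.0 CPM in alveolar macrophages. The neutrophil level came from a minority of the gated cells. Per cell, S100a4 there had a median of 0%, an upper quartile of 0.00115% and a 90th percentile of 0.0849% of UMIs. In T cells the median was also 0%, with an upper quartile of 0.122%. The runs of neutrophils, at 199 CPM or more, did not overlap those of endothelium, at 89.7 CPM or less. Among the upper 5 groups the runs overlapped throughout, and the T cell runs spread widest, between 305 and 2814 CPM with the highest value in run 1. Without run 1, S100a4 was at 686 CPM in T cells.

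The macrophage groups were far apart for S100a4. Alveolar macrophages had 0.0208 times the level of interstitial macrophages (interval 0.0174 to 0.0247), lower in 5 of 5 runs. After thinning, an S100a4 UMI was found in 3.16% of alveolar macrophages, 4.09% of AT2 cells and 3.09% of AT1 cells, with overlapping intervals, against 48.4% of interstitial macrophages. Myh9, the myosin partner of S100a4, was at 557 CPM in alveolar macrophages and 269 CPM in interstitial macrophages.

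S100a6, also called calcyclin, was highest in classical monocytes among the 9 groups, followed by neutrophils with all runs pooled, and set the alveolar epithelial types apart. It was at 3642 CPM in classical monocytes, 2713 CPM in neutrophils, 1897 CPM in AT1 cells, 1864 CPM in nonclassical monocytes, 1666 CPM in T cells and 1518 CPM in interstitial macrophages. It was at 408 CPM in endothelium, 186 CPM in alveolar macrophages and 78.1 CPM in AT2 cells. S100a6 in AT1 cells was 24.3-fold above AT2 cells (interval 21.7 to 27.3), higher in 2 of the 2 runs that held 20 cells of each. Without run 1, S100a6 was at 1041 CPM in AT1 cells. Neutrophils were then at 1807 CPM (interval 1754 to 1862) and nonclassical monocytes at 1817 CPM (interval 1788 to 1847), with overlapping intervals. The endothelial value rested on run 5, with 1800.3 CPM there against a median of 191 CPM over 5 runs and 206 CPM without run 5. Alveolar macrophages had 0.122 times the level of interstitial macrophages (interval 0.115 to 0.130).

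S100a10, the annexin A2 partner, had a different order. It was highest in T cells at 1176 CPM, followed by 796 CPM in alveolar macrophages, 737 CPM in classical monocytes and 653 CPM in interstitial macrophages. It was at 388 CPM in endothelium, 343 CPM in neutrophils, 277 CPM in nonclassical monocytes, 107 CPM in AT1 cells and 63.4 CPM in AT2 cells. Runs of nonclassical monocytes, at 136 CPM or more, did not overlap those of AT1 cells, at 117 CPM or less, but other neighbours in this order overlapped over runs. Anxa2 itself was highest in alveolar macrophages at 1311 CPM, and it was at 244 CPM in T cells, where S100a10 was highest. S100a10 in classical monocytes was 2.66-fold above nonclassical monocytes (interval 2.51 to 2.83), in 5 of 5 runs.

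S100a11 and S100a13 varied least. S100a11, the annexin A1 partner, was at 2416 CPM in neutrophils, 2059 CPM in classical monocytes, 1591 CPM in alveolar macrophages, 1301 CPM in nonclassical monocytes and 977 CPM in interstitial macrophages. It was at 703 CPM in T cells, 609 CPM in AT1 cells, 406 CPM in AT2 cells and 384 CPM in endothelium. Without run 1, S100a11 was at 1737 CPM in neutrophils (interval 1685 to 1791) and 2076 CPM in classical monocytes (interval 2009 to 2145). It was higher in neutrophils in 2 of the 5 runs that held both groups. Anxa1, the partner of S100a11, was highest in neutrophils, at 759 CPM, and was at 23.5 CPM in T cells and 19.2 CPM in endothelium.

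S100a13, which takes part in protein release without a signal peptide, was at 312 CPM in alveolar macrophages, 267 CPM in T cells, 261 CPM in classical monocytes, 184 CPM in interstitial macrophages and 175 CPM in endothelium. It was at 172 CPM in nonclassical monocytes, 135 CPM in neutrophils, 119.9 CPM in AT1 cells and 85.7 CPM in AT2 cells. Every neighbour in the S100a11 and S100a13 orders overlapped over runs. S100a13 and S100a1, which start back to back, had a Pearson correlation of 0.188 over 10 groups on the log2(CPM + 10) scale.

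**Figure D4:**
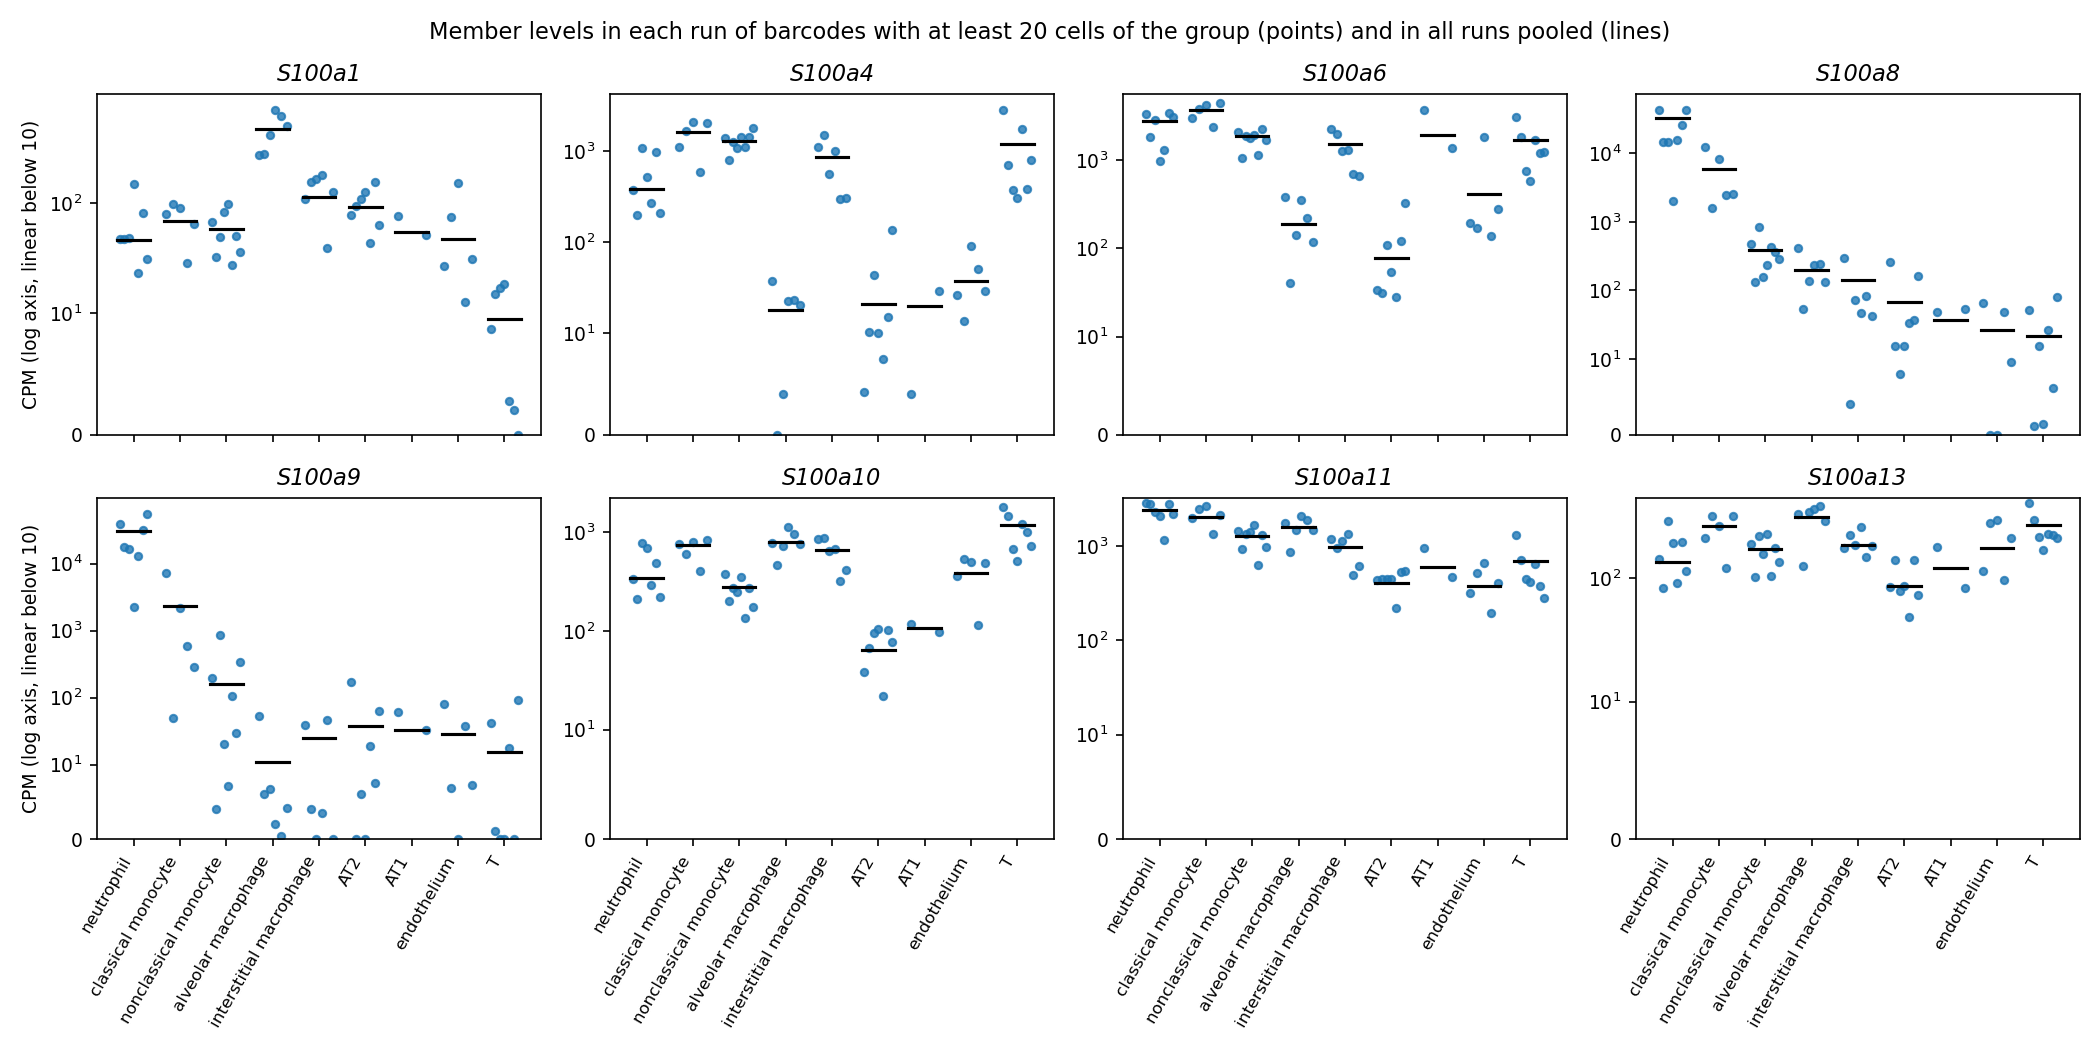
Level of each member in CPM (log axis, linear below 10 CPM) by cell group, with 1 point for each run of barcodes that held at least 20 cells of the group and a line for all runs pooled. The S100a1 points of alveolar macrophages, between 275 and 708 CPM, lie above those of every other group, while S100a8 and S100a9 in neutrophils spread over more than a factor of 20.

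Read as counts of members beyond 4-fold, the remaining groups mostly differed downward. All 8 members passed the minimum of 20 CPM in the group or outside it in all 9 groups. In alveolar macrophages 4 members were called lower (S100a4, S100a6, S100a8 and S100a9), against 9.29% of all genes tested, and the median log2 fold of the members was -1.35, against -0.03 over all genes. In AT2 cells 5 members were called lower (S100a4, S100a6, S100a8, S100a9 and S100a10), against 13.9% of all genes, and none higher, against 10.6%. The members had a median log2 fold of -3.72 in AT2 cells, against -0.28 over all genes.

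In AT1 cells 4 members were called lower (S100a4, S100a8, S100a9 and S100a10), against 10.4% of all genes, and none higher, against 11.8%. S100a10 in AT1 cells had a fold of 0.195, and of 0.286 or 0.316 when cells that passed more than 1 gate were also assigned, which ended its call. In endothelium 3 were called lower (S100a4, S100a8 and S100a9), against 8.80%, and none higher, against 12.6%. S100a6 joined them in endothelium without run 5. The median log2 fold of the members was -1.86 in AT1 cells and -1.78 in endothelium, against 0.32 and 0.28 over all genes tested in those groups.

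In T cells 3 members were called lower (S100a1, S100a8 and S100a9), against 13.0% of all genes, and none higher, against 4.20%. In nonclassical monocytes S100a8 and S100a9 were called lower, against 6.70% of genes called lower, and no member higher, against 0.865%. In interstitial macrophages the same pair was called lower, against 6.61%, and no member higher, against 0.890%. Classical monocytes had no member called in either direction, against 0.287% of genes called higher and 7.76% called lower. The median log2 fold of the members was -0.32 in T cells, -0.65 in nonclassical monocytes and 0.58 in classical monocytes, against -0.02, -0.09 and -0.13 over all genes tested in those groups. In interstitial macrophages it was -0.195, against -0.224 over all genes tested.

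Every call of S100a8 or S100a9 as lower has neutrophils among the outside cells, and 415 of the 772 neutrophils were in run 1. The fold of S100a8 in alveolar macrophages was 0.0497 with all runs and 0.110 without run 1. In nonclassical monocytes the fold of S100a8 was 0.0963 with all runs and 0.235 without run 1, and that of S100a9 was 0.0488 with all runs, 0.119 without run 1 and 0.0215 without run 3. Without run 1, S100a8 had a fold of 0.0220 in AT1 cells (0.0102 with all runs) and 0.0121 in endothelium (0.00722 with all runs). Also without run 1, S100a9 had a fold of 0.00508 in alveolar macrophages (0.00335 with all runs), 0.0149 in interstitial macrophages (0.00838 with all runs) and 0.0170 in AT1 cells (0.0112 with all runs). S100a4 had a fold of 0.0310 in AT2 cells, 0.0201 without run 8, and of 0.0310 in AT1 cells, 0.0484 without run 1. All of these remained beyond 4-fold. No setting left the neutrophils out of the outside cells, so whether the lower calls of S100a8 and S100a9 hold without them was not tested.

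Cells that passed more than 1 gate mattered more in some groups. With such cells counted in each group whose gate they passed, the fold in endothelium was 0.187 for S100a8 (0.00722 with them kept apart) and 0.191 for S100a9 (0.00960 with them kept apart). On the same setting S100a9 had a fold of 0.0283 in alveolar macrophages (0.00335 with them kept apart) and 0.0143 in T cells (0.00489 with them kept apart), S100a8 had a fold of 0.210 in nonclassical monocytes and 0.0163 in T cells, and S100a4 had a fold of 0.132 in AT1 cells. The calls of these members stood.

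The profile of each member over the 9 groups and the other cells was compared with those of 6807 genes at 50 CPM or more in at least 1 of the 10, by Pearson correlation of log2(CPM + 10), as a description over 10 points that share their libraries. The genes most like S100a9 were Stfa1 (0.995), Stfa2l1 (0.993) and Cstdc4 (0.992), and those most like S100a8 were Stfa3 (0.968), Cstdc4 (0.957) and Stfa2l1 (0.956), all of the stefin A family of cysteine protease inhibitors, whose near-identical copies can share reads. S100a1 was most like 4931406C07Rik (0.937), Arl8b (0.932) and Tpp1 (0.928), and Arl8b and Tpp1 encode lysosomal proteins. S100a4 was most like Ifi209 (0.984), Epsti1 (0.967) and Fyb (0.966). S100a10 and S100a13 shared Psmd13, a proteasome subunit, and Rwdd1 among their closest 3, while S100a11 was most like 1600014C10Rik (0.957), G6pdx (0.940) and Cd44 (0.938) and S100a6 most like Rab4b (0.945), Eif4ebp2 (0.936) and Rbm42 (0.921).

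The members also varied within groups. In the 76 neutrophils with at least 5 UMIs of the secondary granule genes Camp, Ngp and Ltf, which mark less mature neutrophils, S100a8 was at 103922 CPM and S100a9 at 114042 CPM, against 20676 and 15975 CPM in the 696 with fewer. This was 5.03-fold for S100a8 (interval 4.98 to 5.07) and 7.14-fold for S100a9 (interval 7.07 to 7.21), and 8.12-fold and 12.0-fold without run 1. S100a4 and S100a10 moved the other way and were nearly missing from the granule-high cells, at 11.3 and 9.04 CPM, against 442 and 402 CPM in the granule-low cells. S100a6 was at 5447 CPM in the granule-high cells and 2226 CPM in the granule-low cells. The gate included cells with little calprotectin, as described above, and their part in these differences was not tested.

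Dividing alveolar macrophages had less S100a1. The 97 cells with at least 2 UMIs of Mki67 and Top2a had 256 CPM of S100a1, against 516 CPM in the other 798 (fold 0.496, interval 0.439 to 0.558). S100a4 was at 41.4 CPM in the dividing cells and 13.9 CPM in the rest (2.98-fold, and 1.54-fold without run 5). The other 6 members differed by less than 1.5-fold between these sets. Median depth was 10236 UMIs in the dividing cells and 7096 UMIs in the rest.

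Interstitial macrophages with inflammatory transcripts differed in S100a8, mostly through 1 run. In the 16 cells with at least 5 UMIs of Saa3, Arg1 and Inhba, S100a8 was at 537 CPM, against 60.5 CPM in the other 214 (8.88-fold, interval 6.90 to 11.5). S100a9 was at 27.6 CPM in the inflammatory cells and 24.4 CPM in the rest, with an interval of the fold between 0.482 and 2.37. S100a6 was at 2634 CPM in the inflammatory cells and 1295 CPM in the rest. Of the 16 cells, 12 were in run 1 and 4 in run 6. Without run 1, S100a8 was at 159 CPM in the 4 inflammatory cells, from 11 UMIs, against 44.3 CPM in the other 190 (3.60-fold, interval 1.69 to 6.97). S100a6 then turned round, at 696 CPM in the inflammatory cells, against 1135 CPM in the rest (fold 0.613). The inflammatory cells were deeper, with a median of 19052 UMIs, against 5967 UMIs in the rest, and the fold of S100a8 for the whole group over all other cells was 0.0381 with all cells and 0.0252 without the deepest 5%. In alveolar macrophages only 6 cells passed the same inflammatory minimum, with S100a8 at 553 CPM, against 191 CPM in the other 889.

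Capillary endothelial cells with at least 3 UMIs of Car4, an enzyme of the large-bodied alveolar capillary cells known as aerocytes, had less of several members. In these 59 cells S100a6 was at 112 CPM, against 459 CPM in the other 353 (fold 0.244, interval 0.153 to 0.369). Without run 5, where the S100a6 of the group was concentrated, it was at 98.6 CPM, against 227 CPM (fold 0.435, interval 0.258 to 0.695), and without run 7 the fold was 0.135. S100a11 was at 126 CPM in the Car4-high cells and 428 CPM in the rest, and S100a10 at 165 CPM in the Car4-high cells and 427 CPM in the rest. The fold of S100a10 was 0.387, and 0.203 without run 7. No AT2 cell reached 1% of its UMIs as Scgb1a1, so the club cell split of AT2 cells could not be made.

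**Figure D5:**
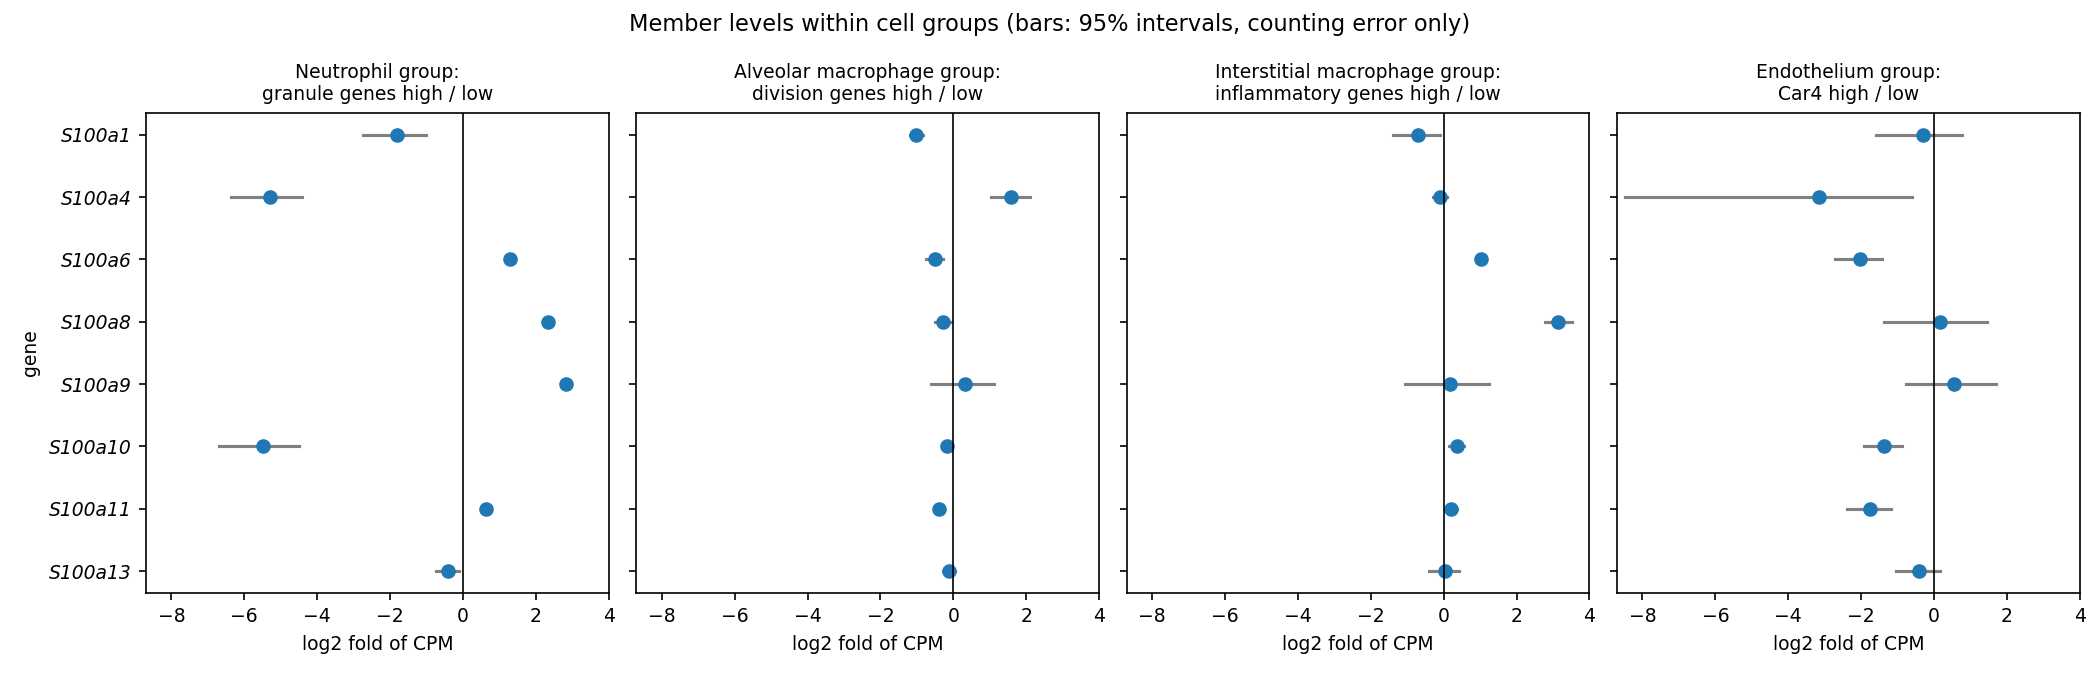
log2 fold of each member between sets of cells within 4 groups, with 95% intervals for counting error: granule genes high over low in neutrophils, division genes high over low in alveolar macrophages, inflammatory genes high over low in interstitial macrophages and Car4 high over low in endothelium. S100a4 and S100a10 lie far to the left in granule-high neutrophils, and S100a8 lies to the right without S100a9 in inflammatory interstitial macrophages, of which 12 of 16 cells were in run 1.

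Of the 9 other S100 genes in the table, 3 were called higher in a group, and each marked a structural cell type. S100g, the vitamin D-dependent calcium carrier calbindin-D9k, was at 1215 CPM in AT2 cells, 168-fold above all other cells. S100a14 was at 123 CPM in AT1 cells, 128-fold above all other cells. S100a16 was at 295 CPM in endothelium, 43.3-fold above all other cells, and at 44.8 CPM in AT1 cells. None of the 8 members followed above was called higher in these 3 groups.

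Of 15 partners and receptors of the family, of which 13 to 15 passed the 20 CPM minimum in a group, 2 were called higher in AT1 cells, against 11.8% of all genes tested, and 2 in AT2 cells, against 10.6%, Ager and Fgf1 in each case. Ager, the receptor of calprotectin also known as RAGE, was at 4279 CPM in AT1 cells (76.8-fold) and 705 CPM in AT2 cells (12.3-fold), and it was among the genes that checked the AT1 group. Tlr4, the other calprotectin receptor, was highest in neutrophils at 127 CPM and alveolar macrophages at 94.6 CPM, and it was at 5.27 CPM in AT1 cells. Fgf1, which is released with S100a13, was at 207 CPM in AT1 cells, 84.6 CPM in AT2 cells and 82.4 CPM in endothelium, while S100a13 was lowest in the 2 epithelial groups. Endothelium had 2 partners called higher, Fgf1 and Ryr2, against 12.6% of all genes. Neutrophils had 1, against 1.82%, the formyl peptide receptor Fpr1 at 211 CPM (4.19-fold), and the other 5 groups had none. Called lower were 6 of 13 partners tested in T cells, against 13.0% of all genes, namely Anxa1, Ager, Tlr4, Il1a, Fpr1 and Cd36. The count was 4 of 15 in AT1 cells, against 10.4%, 4 of 15 in endothelium, against 8.80%, 3 of 15 in AT2 cells, against 13.9%, and 3 of 13 in interstitial macrophages, against 6.61%. It was 2 of 13 in neutrophils, against 5.90%, 2 of 13 in classical monocytes, against 7.76%, 1 of 13 in nonclassical monocytes, against 6.70%, and 1 of 13 in alveolar macrophages, against 9.29%.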

How the data were processed

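The deposited values are raw counts of UMIs, whole and not normalized, in a single table of genes by cells. Cell Ranger 1.3.1 and mm10 are named per the submitters' processing notes, and a droplet-based 3' kit per the labels' protocols. How strand and introns were counted is not stated in the sources used. The table was already filtered, with at least 800 genes in every cell and at most 9.99% mitochondrial UMIs.

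Of 8 libraries, 0 could be tied to cells, so the table was 1 pooled sample, the planned count tests of hyperoxia against air were not run, and no p-value is given. The members, gates and gene lists were chosen with earlier results of these data known. Counts were summed per gate group and divided by the group total (CPM). The gates used summed UMIs of the named genes, with minimums of 3 for neutrophils, 2 for F13a1 with 1 for Ly6c2, 2 for nonclassical monocytes, 2 for alveolar macrophages, 5 for interstitial macrophages, 3 for AT1 cells, 2 for endothelium and 2 for T cells, and for AT2 cells Sftpc at 3% of UMIs. A gene was tested with at least 20 CPM in the group or outside it, and called at 4-fold. Genes named beside the members were the 3 with the closest profile to each, 15 fixed partners and the other S100 genes called higher. No doublet caller was run, cells of more than 1 gate being kept apart, and free RNA was not subtracted.

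Intervals were exact Poisson or Clopper-Pearson. The sums, folds and calls were tested on simulated data. Thinning drew 2000 UMIs per cell without replacement and left out shallower cells. Alternatives changed the gates, the fold, the minimum, the weighting of cells and the runs. Columns of other per-sample values numbered 0. Positions came from GENCODE vM21 and promoters from RefSeq. Python 3.11.15, numpy 2.4.6, scipy 1.17.1 and matplotlib 3.10.9 were used.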

Additional observations from a re-analysis of the deposited data

How the results depend on the processing

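No paired analysis was possible because the columns carry no library key, although the titles share replicate numbers between the groups, and the edgeR fit and the DESeq2 alternative were not run for the same reason. Of 342 alternative counts of called members, 330 were within 1.5 times the count with the chosen settings, and no fold of a called member changed direction under any alternative. At 2-fold, 4 members were called higher and 1 lower in neutrophils, 2 higher and 1 lower in classical monocytes, 1 higher and 4 lower in nonclassical monocytes, 6 lower in endothelium and 1 higher in T cells. In neutrophils 1 member was called lower with gate minimums doubled, with the mean of each cell's CPM and with cells thinned to 2000 UMIs. In endothelium 5 were called lower with the median over runs. Leaving out each run in turn moved the S100a8 to S100a9 ratio between 0.951 and 1.11 in neutrophils, 2.20 and 5.50 in classical monocytes, 1.86 and 4.38 in nonclassical monocytes, 12.1 and 26.5 in alveolar macrophages, 2.91 and 8.00 in interstitial macrophages, and 1.70 and 2.60 in AT2 cells. The cause of these moves was not tested. Leaving out each run from the sets of cells within a group was added after the data were seen. In inflammatory over other interstitial macrophages, S100a6, S100a10 and S100a11 changed direction without run 1, with folds between 0.613 and 2.24, 0.650 and 1.37, and 0.278 and 1.27 over the runs left out. Depth limits S100a9 outside neutrophils and monocytes, with 25 UMIs in AT1 cells, 40 in endothelium, 49 in interstitial macrophages, 84 in T cells, 85 in alveolar macrophages and 177 in AT2 cells.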

Other observations

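Cells that passed none of the 9 gates held smaller types with their own S100 profiles, found with further gates. In 19 cells of the ciliated gate (Foxj1 and Tmem212) S100a6 was at 7509 CPM (interval 7084 to 7954), above its level in every gated group, and S100a1 was at 613 CPM (interval 496 to 749.9), also above the 477 CPM of alveolar macrophages, with S100a11 at 2647 CPM and S100a4 at 45.2 CPM. In 195 cells of the natural killer gate (Ncr1 and Klrb1c) S100a10 was at 1116 CPM and S100a4 at 681 CPM, with S100a1 at 21.2 CPM. In 133 cells of the B cell gate (Cd79a and Ms4a1) S100a10 was at 532 CPM and S100a6 at 472 CPM, while S100a4 was at 17.4 CPM, so the lymphocyte groups differed in S100a4. In 38 cells of the migratory dendritic gate (Ccr7, Fscn1 and Ccl22) S100a4 was at 721 CPM, against 145 CPM in 111 cells of the conventional dendritic gate (Flt3, Xcr1 and Zbtb46). In 383 cells with Dppa5a transcripts S100a4 was at 5.75 CPM and S100a6 at 67.5 CPM.

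Calprotectin-rich cells also lay outside the neutrophil gate. Of the 4780 cells that passed none of the 9 gates, 124 (2.59%, interval 2.16 to 3.09%) had at least 1% of their UMIs as S100a8 and S100a9, with a maximum of 38.3%. Of the 875 cells that passed more than 1 gate, 55 (6.29%) did, and of the 351 classical monocytes 41 (11.7%).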
